A study of Mus musculus with 6 samples.

Results

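Mitotic G2/M genes were examined in long-term blood stem cells (LT-HSCs), which renew themselves and give rise to all blood lineages. The set held 37 named genes, listed by name as genes of the late cell cycle and mitosis by a rule that uses no measured value, out of 55357 gene identifiers in the count table. All 37 were found by symbol and all 37 were among the 14592 genes with enough counts to be tested. The cells were taken from bone marrow of 3 Dcaf8 knockout (KO) and 3 wild-type (WT) mice at a young age. Sorting selected cells without lineage markers and CD48 that carried Sca-1, c-Kit and CD150, and each library was made from 50 cells by full-length mRNA amplification. The labels do not give the design of the knockout allele, the strain or the exact age, and KO and WT mice share no other stated treatment. Levels are given as CPM after TMM normalisation, which scales each library to an effective size, and always for replicates 1, 2 and 3 of a genotype in that order.

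A dividing cell transcribes the genes of mitosis late in its cycle, mostly in G2, and keeps them repressed in G0 and G1. In G0 and early G1 the DREAM complex, built on the MuvB core, holds many of them silent through a promoter element called the cell cycle genes homology region (CHR), and MYBL2 and FOXM1 later act with MuvB to activate them, often beside CCAAT boxes bound by NF-Y. The products include CDK1 and its cyclins, the kinases and kinetochore proteins that build and check the spindle, and the ubiquitin enzymes that end mitosis. LT-HSCs are known as a mostly quiescent population, so that few cells of a sample are in mitosis at any time.

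The libraries held 14461864 to 22386387 counts and 15244 to 17015 detected genes, and the common coefficient of variation between libraries of 1 genotype was 75.1%. Dcaf8 itself stood at 74.1, 38.0 and 45.1 CPM in KO, against 289.8, 292 and 203 CPM in WT libraries, so that KO libraries held 20.04% of the WT mean (exact permutation p = 0.1, two-sided, the smallest that 3 against 3 allows). All 15 LT-HSC marker genes listed for the check were detected. They summed to 4314, 3546 and 3537 CPM in KO, against 4100, 3755 and 3787 CPM in WT libraries. KO replicate 1 was the highest KO library for 12 of the 15 (80.0%), against 33.8% of tested genes. Libraries stood apart in other ways. A list of 12 neutrophil granule genes summed to 7741 CPM in WT replicate 2, with Ngp at 2399 CPM, and to 3.32 to 31.0 CPM in the other 5 libraries. KO replicate 3 alone carried Xist (50.7 CPM) with almost no Y-linked counts and so came from a female, while the other 5 came from males. WT replicate 3 had the fewest detected genes.

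No mitotic gene differed between KO and WT cells by edgeR's quasi-likelihood test after Benjamini-Hochberg adjustment. The count was 0 of 37 members and 0 of 14592 genes (0.0%). What set the mitotic genes apart from most others was the spread among mice of 1 genotype, above all among WT mice. The summed level of the 37 members was 3298, 5648 and 3756 CPM in KO libraries, against 5944, 2220 and 1586 CPM in WT libraries. WT replicate 1 thus held the highest sum of all 6 libraries and WT replicates 2 and 3 the lowest sums, with every KO library in between. The ratio of the highest to the lowest sum was 1.71 among KO and 3.75 among WT libraries. As a share of all counts the members took 0.337, 0.563 and 0.376% in KO, against 0.595, 0.220 and 0.157% in WT libraries. In a library of pooled cells, more cells in mitosis and more of this RNA per cell cannot be told apart.

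**Figure D1:**
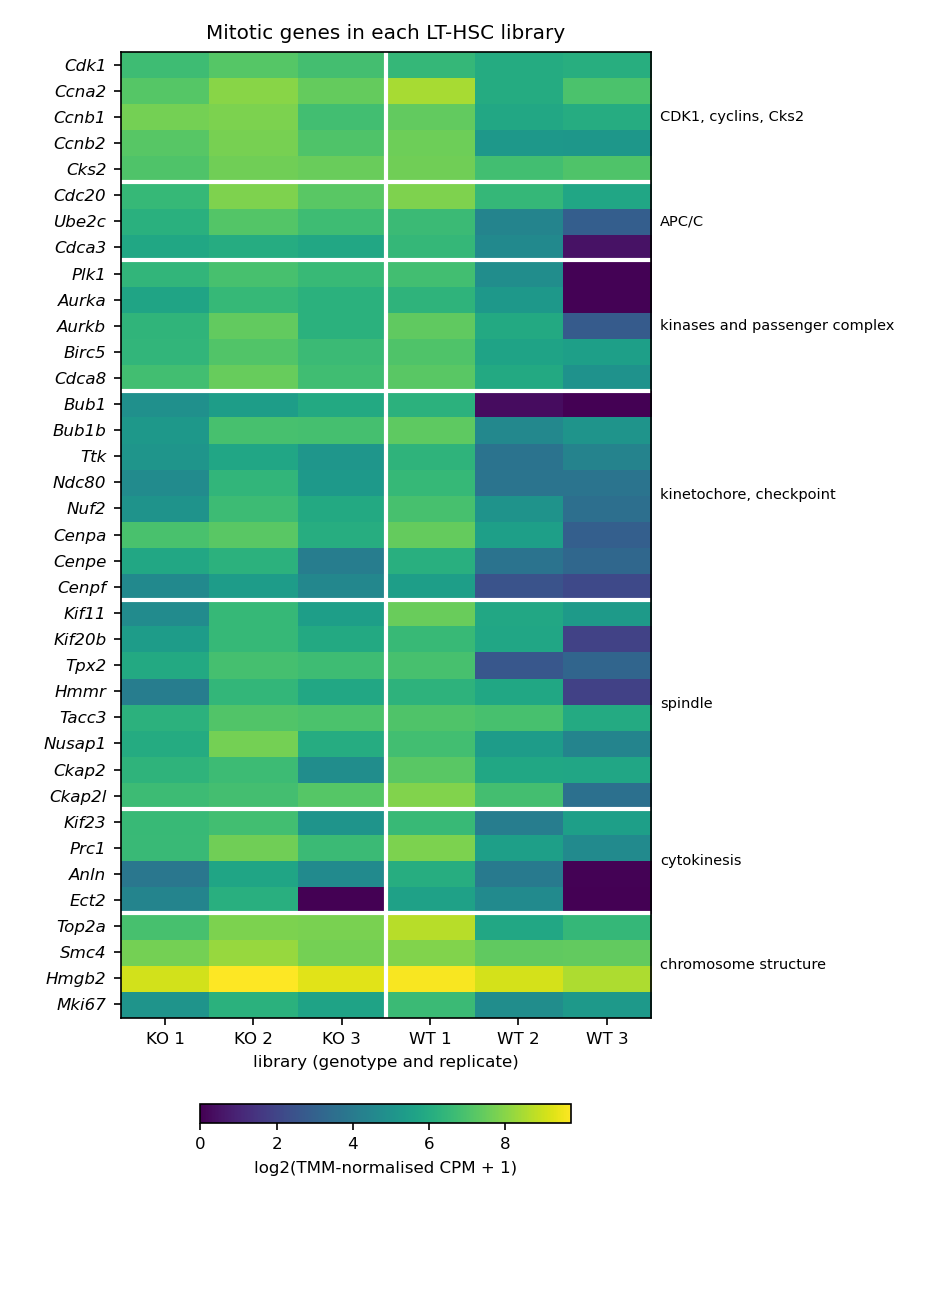
Level of each of the 37 mitotic genes (rows, grouped by role) in each library (columns, KO left and WT right), as log2 of TMM-normalised CPM plus 1. KO replicate 2 and WT replicate 1 are the brightest columns of their genotypes, and the cells at 3 counts or fewer, among the darkest, are Plk1, Aurka, Bub1, Anln and Ect2 in WT replicate 3 and Ect2 in KO replicate 3.

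The mitotic genes kept almost the same order of libraries within each genotype. In KO, replicate 2 was the highest of the 3 libraries for 35 of 37 members, against 32.8% of all tested genes. The exceptions were Bub1 and Ckap2l, which were highest in KO replicate 3. In WT, replicate 1 was the highest for 37 of 37 members, against 35.9% of all tested genes. Both orders held together for 35 members (94.6%), against 11.2% of tested genes. Below the top library the order was less uniform. KO replicate 3 exceeded KO replicate 1 for 26 members, and WT replicate 2 exceeded WT replicate 3 for 25. In WT replicate 1, 29 of 37 members (78.4%) stood at more than 2 times the level of each of the other WT libraries, against 9.61% of tested genes, a count chosen after the values were seen. All genes of a library were measured in the same 50 cells, so the members are not independent of each other and these counts carry no test.

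Promoters of some members are shown because the CHR and the CCAAT box, described above as features of many mitotic genes, can be looked for in them apart from any count. RefSeq promoter windows (GRCm38.p6, 250 bases before to 50 after a transcription start) were found for 33 of the 37 members. Aurkb, Ccna2, Smc4 and Tpx2 had no entry. The 7 stretches printed here are the last 120 bases before the start, 5′ to 3′ on the gene's strand. Capitals mark the CHR, searched as TTTGAA or TTTAAA, and the CCAAT box, each on either strand, so that TTCAAA and ATTGG are matches on the other strand. The genes printed were chosen with their motifs known. They come from Cdk1 (chr10:69352913-69353032, minus strand), Ccnb1 (chr13:100786487-100786606, minus strand), Cdc20 (chr4:118437344-118437463, minus strand), Ube2c (chr2:164769809-164769928, plus strand), Plk1 (chr7:122159315-122159434, plus strand), Top2a (chr11:99024190-99024309, minus strand) and Nuf2 (chr1:169531465-169531584, minus strand). Cdk1 is the only member whose libraries did not overlap between genotypes, Ccnb1 its cyclin partner, Cdc20 and Ube2c act in the anaphase-promoting complex pathway, Plk1 is a mitotic kinase, Top2a untangles chromosomes, and Nuf2 is a kinetochore gene without either motif.
Cdk1: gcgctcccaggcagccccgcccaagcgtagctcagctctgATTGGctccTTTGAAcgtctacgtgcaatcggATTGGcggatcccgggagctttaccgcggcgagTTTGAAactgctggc
Ccnb1: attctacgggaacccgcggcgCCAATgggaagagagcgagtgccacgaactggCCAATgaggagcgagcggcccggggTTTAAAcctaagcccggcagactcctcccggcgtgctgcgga
Cdc20: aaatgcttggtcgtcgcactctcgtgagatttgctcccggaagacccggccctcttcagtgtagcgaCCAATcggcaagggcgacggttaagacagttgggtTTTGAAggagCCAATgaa
Ube2c: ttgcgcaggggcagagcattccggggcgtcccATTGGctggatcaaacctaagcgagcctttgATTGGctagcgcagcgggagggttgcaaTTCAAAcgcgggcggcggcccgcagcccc
Plk1: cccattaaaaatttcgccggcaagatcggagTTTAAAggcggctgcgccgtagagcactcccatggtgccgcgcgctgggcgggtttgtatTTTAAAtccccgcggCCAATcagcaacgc
Top2a: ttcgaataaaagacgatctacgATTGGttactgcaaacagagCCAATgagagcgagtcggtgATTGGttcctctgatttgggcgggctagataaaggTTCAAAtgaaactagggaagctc
Nuf2: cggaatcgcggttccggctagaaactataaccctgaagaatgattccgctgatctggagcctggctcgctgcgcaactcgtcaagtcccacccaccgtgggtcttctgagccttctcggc

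A CHR was found in 28 of 33 members (84.8%), against 30.6% of the 27025 genes of the table and 22.9% of the tested genes with a window. A CCAAT box was found in 26 of 33 members (78.8%), against 41.1% of all genes, and both motifs in 24 (72.7%), against 12.2%. Bub1 and Cks2 held CCAAT boxes and no CHR, and Nuf2, Nusap1 and Tacc3 held neither. In a list of 50 DNA replication genes, of which 41 had a window, a CHR was found in 26.8% and a CCAAT box in 63.4%. Over all lists of other mitotic genes combined, 106 genes had a window and a CHR was found in 51 (48.1%). Within these, it was 22.2% among 18 genes for subunits and regulators of the anaphase-promoting complex. Among 21 other spindle and cytokinesis genes it was 76.2%. The counts of genes with both motifs and of the other lists were added after the main counts were seen. A match is a string of letters in the window and does not show that a factor binds there.

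**Figure D2:**
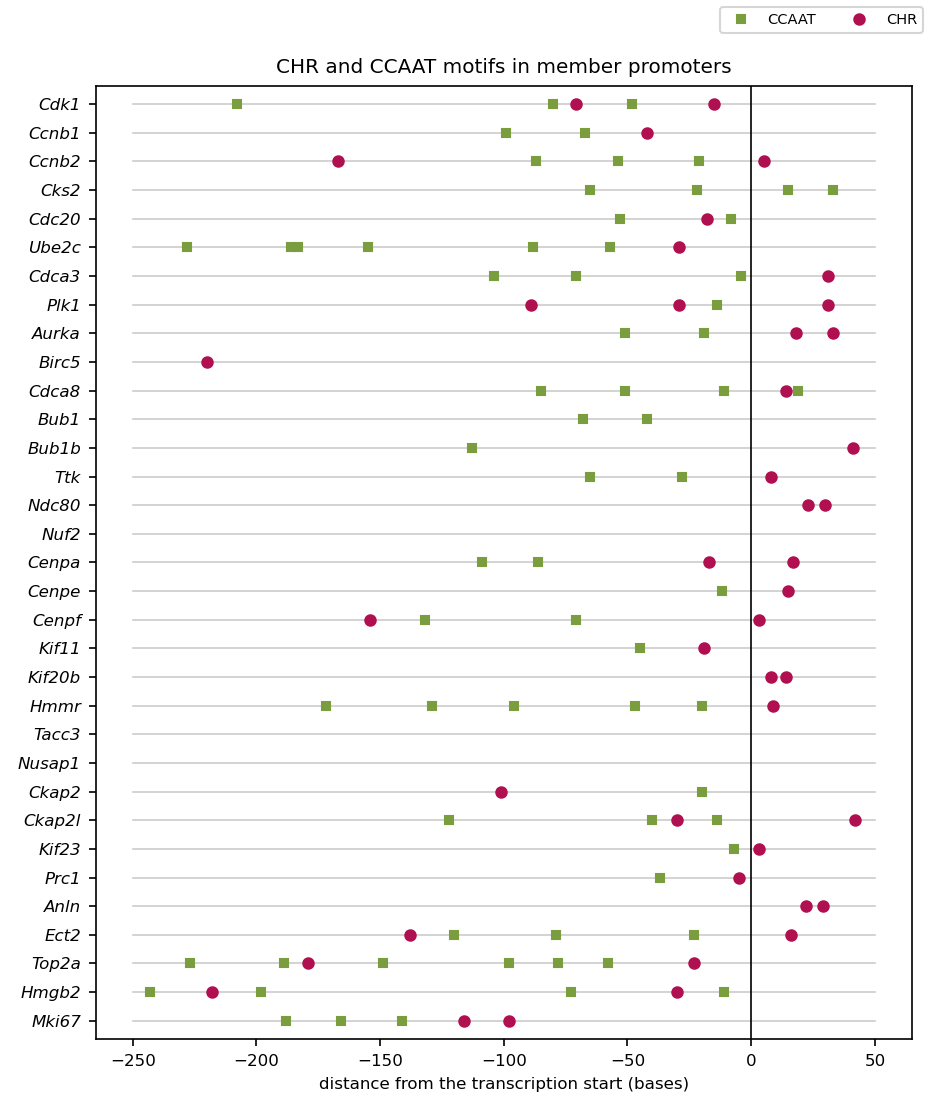
Positions of CHR (circles) and CCAAT (squares) matches on either strand in the promoter window of each of the 33 members with a window, by distance from the transcription start in bases; for genes with several windows the first is drawn. Most matches lie within 100 bases of the start, and the lines of Nuf2, Nusap1 and Tacc3 are empty.

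The kinase at the centre of mitotic entry and its partners were counted in every library. Cdk1 (ENSMUSG00000019942) stood at 105, 144 and 113 CPM in KO, against 88.8, 63.0 and 67.1 CPM in WT libraries. Every KO library lay above every WT library, and Cdk1 was the only member of which this was true (1 of 37, against 5.91% of tested genes). It was also the only member with an unadjusted p under 0.05 and a higher level in KO (1 of 37, against 3.47%). Its log2 fold change, KO over WT, was 0.71 ± 0.23 (SE; edgeR, Benjamini-Hochberg adjusted p = 0.755), and it had the smallest spread of all members among WT libraries, with a standard deviation of 0.26 on the log2 scale. Its level averaged 121 ± 20.6 CPM in KO and 73.0 ± 13.9 CPM in WT (SD, n = 3 each).

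Ccna2, the cyclin that partners CDK2 and CDK1 from S phase into early mitosis, had 142, 259 and 173 CPM in KO libraries, against 352, 63.4 and 125 CPM in WT libraries. The WT values spanned the whole KO range, and the log2 fold change was 0.08 ± 0.56. In the annotation of GRCm38 its exons overlap those of Exosc9. Cks2, a small subunit that binds CDK1, had 132, 195 and 180 CPM in KO, against 199, 110.0 and 131 CPM in WT libraries. The groups overlapped, with a log2 fold change of 0.20 ± 0.26. The B-type cyclin genes had higher log2 fold changes, 0.93 ± 0.45 for Ccnb1 and 0.92 ± 0.62 for Ccnb2, and WT replicate 1 (166 and 192 CPM) lay inside the KO range of both. Per kilobase of exon, Cks2 was the most abundant of all 37 members with 228 CPM per kb over the 6 libraries, followed by Hmgb2 with 209 and Ccnb2 with 81.9, while Cdk1 had 19.6.

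The 3 genes for ubiquitin steps of mitosis had log2 fold changes above 0, with a median of 0.67. Cdc20, which activates the anaphase-promoting complex in mitosis, had 91.1, 230.0 and 149 CPM in KO, against 231, 88.6 and 52.9 CPM in WT libraries. KO replicate 2 and WT replicate 1 were level with each other, and the log2 fold change was 0.32 ± 0.55. Ube2c, which encodes a ubiquitin-conjugating enzyme for that complex, had 71.4, 139 and 103 CPM in KO, against 98.4, 20.3 and 6.43 CPM in WT libraries. WT replicate 1 lay within the KO range and the other WT libraries far under it (log2 fold change 1.34 ± 0.71, edgeR adjusted p = 0.881). Ube2c had the largest log2 fold change of the 37 members. Cdca3, linked to degradation at mitotic entry, varied less in KO than any other member (54.9 to 64.2 CPM) and spanned 0.405 to 89.2 CPM in WT.

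The 5 genes of mitotic kinases and of the chromosomal passenger complex had log2 fold changes from 0.49 to 1.15, with a median of 0.71. Cdca8, which encodes borealin, stood at 111, 178 and 108 CPM in KO, against 151, 59.7 and 30.1 CPM in WT libraries. Aurkb, the kinase of the same complex, stood at 81.9, 168 and 73.9 CPM in KO, against 163, 59.2 and 5.97 CPM in WT libraries. In both genes WT replicate 1 lay inside the KO range and the remaining WT libraries lay under all of it, with log2 fold changes of 0.71 ± 0.51 for Cdca8 and 0.49 ± 0.77 for Aurkb. Birc5 (survivin), a further subunit, was steadier than Aurkb in WT, at 43.5 to 132 CPM. Plk1, the polo-like kinase, had 84.6 to 119 CPM in KO and from 0.0506 CPM (1 count) to 110.5 CPM in WT libraries. Aurka, the kinase of the spindle poles, likewise had 50.4 to 92.1 CPM in KO and from 1 count to 80.1 CPM in WT.

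All 8 genes of the kinetochore and the spindle checkpoint had log2 fold changes above 0, from 0.11 to 0.87. Cenpa, the centromeric histone H3 variant, stood at 121, 152 and 66.0 CPM in KO, against 170, 44.0 and 6.68 CPM in WT libraries. Bub1b, which encodes the checkpoint protein BubR1, stood at 35.5, 119.5 and 114 CPM in KO, against 160, 22.6 and 32.2 CPM in WT libraries. For both genes WT replicate 1 was the highest of all 6 libraries, and the other WT libraries lay under every KO library. Bub1, the checkpoint kinase, stood at 28.4, 42.3 and 58.8 CPM in KO, against 75.6, 0.241 and 0 CPM in WT libraries. It had the largest spread of all members in WT. In WT replicate 3 its count of 0 allows up to 0.150 CPM, which is 3 counts. Ttk (MPS1 kinase), Ndc80 and Nuf2 (microtubule-binding kinetochore subunits), Cenpe (a kinetochore motor) and Cenpf (a large kinetochore protein) had WT maxima of 43.1 to 119 CPM, all in replicate 1. In KO libraries the level of Cenpe ranged from 16.3 to 74.8 CPM, the lowest in replicate 3, the female library. That library was the lowest in KO for 11 of 37 members (29.7%), against 33.8% of all tested genes.

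The spindle motors and microtubule proteins were divided, with 5 of 8 log2 fold changes above 0 and a median of 0.14. Ckap2l, a spindle protein gene also called radmis, stood at 101, 112 and 141 CPM in KO, against 238, 111 and 11.0 CPM in WT libraries. The WT libraries spanned a range far wider than the KO libraries, around nearly the same mean of 118 ± 20.9 CPM in KO and 120.2 ± 114 CPM in WT (SD, n = 3 each). Tacc3, which stabilises spindle microtubules, stood at 74.8, 137 and 126 CPM in KO, against 131, 118 and 60.6 CPM in WT libraries. It was steadier than most members and overlapped between genotypes (log2 fold change 0.11 ± 0.35). Kif11, the motor that pushes spindle poles apart, had the lowest log2 fold change of all members, -0.87 ± 0.68 (edgeR adjusted p = 0.951), with 25.1 to 90.7 CPM in KO and 38.5 to 181 CPM in WT libraries. Tpx2, which activates Aurora A on the spindle, was at 1.13 ± 0.87. Kif20b, Hmmr, Nusap1 and Ckap2 lay from -0.35 to 0.92.

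Genes of cytokinesis had the largest median spread of the 7 role groups in both genotypes, with a standard deviation of 0.98 in KO and 3.11 in WT on the log2 scale. Prc1, which bundles the microtubules of the central spindle, stood at 97.2, 194 and 98.7 CPM in KO, against 225, 44.4 and 24.1 CPM in WT libraries. Kif23, the motor of centralspindlin, stood at 93.7, 111 and 31.5 CPM in KO, against 92.7, 16.3 and 44.0 CPM in WT libraries. Prc1 was highest in WT replicate 1 and Kif23 in KO replicate 2, and both overlapped between genotypes (log2 fold changes 0.41 ± 0.73 and 0.62 ± 0.64). Anln (anillin) and Ect2, the exchange factor that activates RhoA at the furrow, had the lowest levels per kilobase of the group, 3.12 and 4.95 CPM per kb. Ect2 had 0 counts in the third replicate of each genotype, which allows up to 0.135 CPM in KO replicate 3 and 0.150 CPM in WT replicate 3.

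Chromosome-structure genes had the smallest median spread of the 7 role groups in WT, 0.77 on the log2 scale. Hmgb2, a chromatin protein gene that is also transcribed outside mitosis, stood at 541, 852 and 637 CPM in KO, against 808, 553 and 375 CPM in WT libraries. Smc4, a core condensin subunit, stood at 209, 303 and 207 CPM in KO, against 239.5, 161 and 166 CPM in WT libraries. Both were highest in KO replicate 2 and in WT replicate 1, the order of the lower libraries differed between them, and both overlapped between genotypes (log2 fold changes 0.22 ± 0.28 and 0.34 ± 0.23). Top2a, the topoisomerase of mitotic chromosomes, stood at 412 CPM in WT replicate 1 against 56.9 to 89.1 CPM in the other WT libraries, and at 119.5 to 224 CPM in KO. Mki67, the proliferation marker Ki-67, stood at 31.6 to 74.1 CPM in KO and 26.2 to 99.2 CPM in WT libraries (log2 fold change -0.11 ± 0.55).

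Over all 37 members, the median standard deviation of log2 CPM was 0.52 among KO and 1.50 among WT libraries. For all tested genes it was 0.42 and 0.53, and for the 10567 tested genes within the members' range of mean level 0.34 and 0.43. The WT standard deviation was the larger in 35 of 37 members, against 62.5% of tested genes, and the exceptions were Ckap2 and Ect2. It exceeded 1 in 28 members (75.7%), against 16.4% of the genes of the same level range. In KO the standard deviation exceeded 1 in 4 members (10.8%), against 7.55% of the genes of that range. Some members had almost no counts in single libraries. In WT replicate 3, Plk1, Aurka, Bub1, Anln and Ect2 had 3 counts or fewer, which is 5 of 37 members against 2.06% of genes in the same range. KO replicate 3 had 1 such member and the other 4 libraries 0. WT replicate 3 also had the fewest detected genes, 15244 against 16183 to 17015 in the other libraries, and the part of this in the result was not tested.

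**Figure D3:**
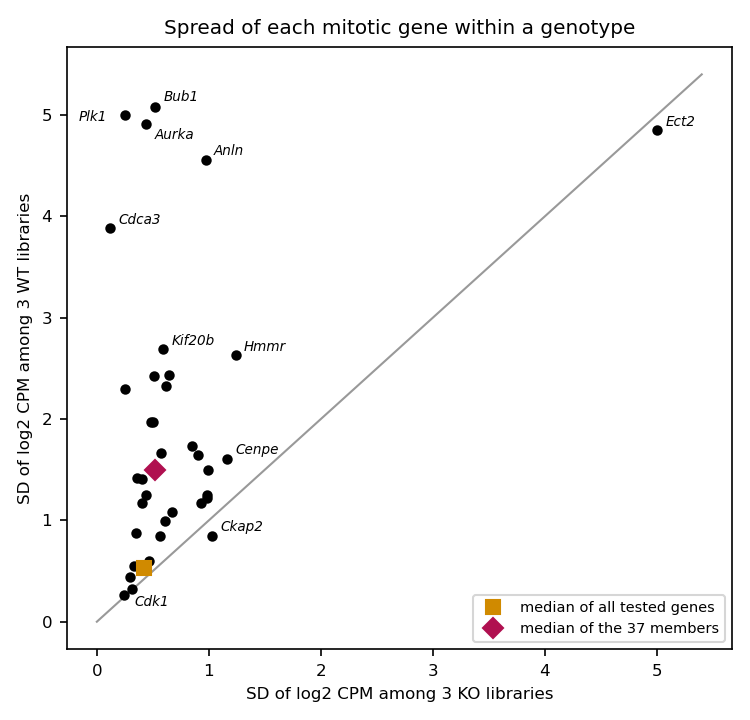
Standard deviation (SD) of log2 CPM among the 3 WT libraries (vertical axis) against that among the 3 KO libraries (horizontal axis) for each of the 37 mitotic genes, with the line of equal spread. All points but Ckap2 and Ect2 lie above the line, and the members' median (diamond) is 0.52 in KO and 1.50 in WT, against 0.42 and 0.53 for all tested genes (square).

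Between genotypes the members leaned one way without reaching the threshold. The log2 fold change was above 0 in 33 of 37 members (50.9% of tested genes), with a median of 0.34 against 0.01 over all tested genes. Kif11, Ckap2, Mki67 and Ckap2l lay below 0, Ckap2l by less than 0.01. DESeq2, run on all genes with a count, called 0 of 37 members, while it called 153 of 17779 genes (0.861%). Single libraries moved these counts in both directions. Without WT replicate 1, 37 of 37 members were above 0 (52.3% of tested genes), with a median of 1.51. In that fit 22 members were higher in KO at an unadjusted p under 0.05 (6.07% of tested genes), with 0 past the adjusted threshold. Without WT replicate 3, 18 of 37 were above 0 (51.8% of tested genes), with a median of -0.01. Without KO replicate 2 the count was 24 with a median of 0.10, without WT replicate 2 (the library with neutrophil genes) 26 with 0.23, and without KO replicate 3 (the female) 33 with 0.53. In 18 members the sign stayed the same whichever library was left out, and the narrowest such range was that of Cdk1, 0.58 to 0.87.

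**Figure D4:**
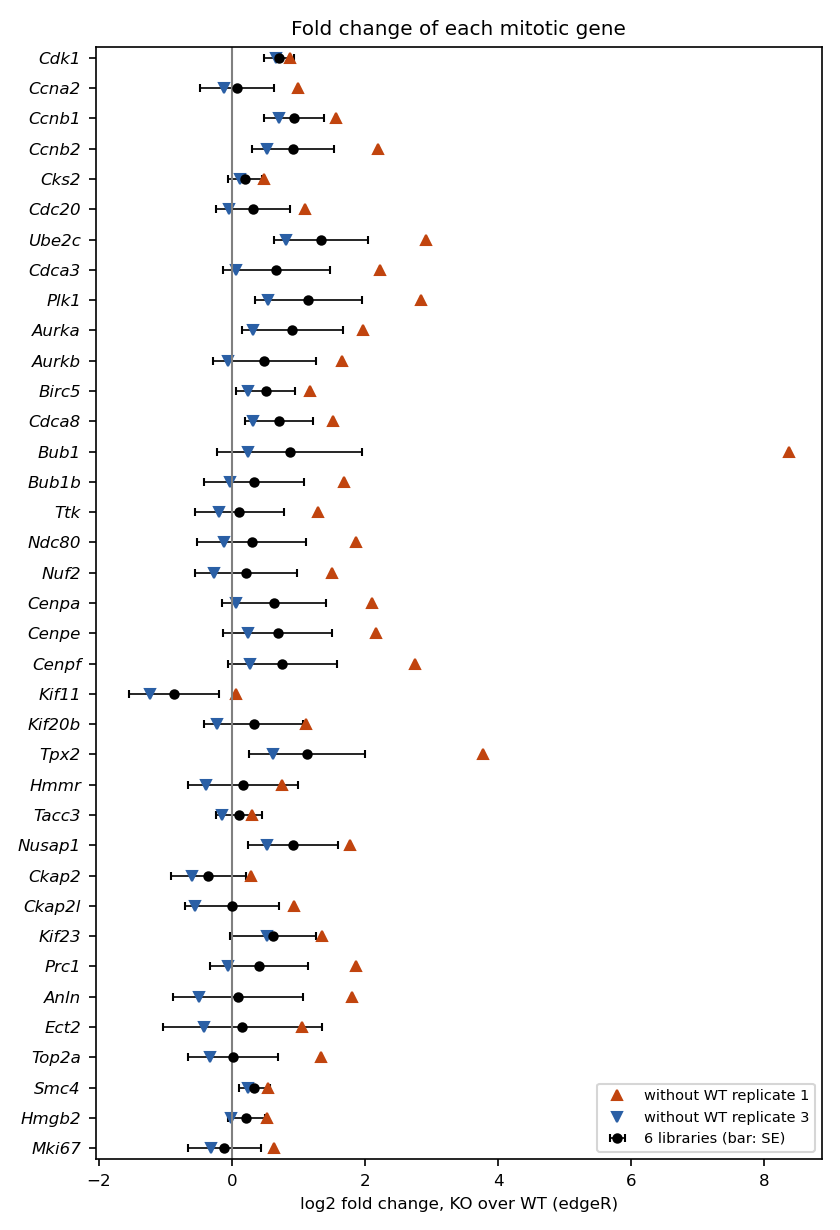
Log2 fold change, KO over WT, of each mitotic gene by edgeR with all 6 libraries (circles, bars are SE), without WT replicate 1 (upward triangles) and without WT replicate 3 (downward triangles). Without WT replicate 1 all 37 values lie above 0, and without WT replicate 3 only 18 do; the value of 8.37 for Bub1 is fitted against WT libraries with 5 and 0 counts and depends on the prior count.

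A further 130 genes of mitosis in 6 lists, all tested, showed where the shared order of libraries ended. By edgeR 0 of them passed after adjustment, 91 had a log2 fold change above 0 (50.9% of tested genes), and the median was 0.17. At an unadjusted p under 0.05, 3 of 130 were higher in KO (3.47% of tested genes) and 1 was lower (2.35%). In 6 of 130 every KO library lay above every WT library (5.91% of tested genes), and in 2 every KO library lay below (4.43%). These 4 shares lie near or under those of all tested genes. Kif4, a chromokinesin gene, stood at 46.9, 73.1 and 41.9 CPM in KO, against 24.0, 6.33 and 8.96 CPM in WT libraries, with a log2 fold change of 2.04 ± 0.51 (edgeR adjusted p = 0.739). Fzr1, the CDH1 activator of the anaphase-promoting complex that acts in late mitosis and G1, stood at 195, 173 and 122 CPM in KO, against 105, 57.5 and 66.7 CPM in WT libraries (log2 fold change 1.11 ± 0.29, edgeR adjusted p = 0.739). Rad21, the cleavable subunit of cohesin, had a log2 fold change of 1.07 ± 0.45. Cenpc1, a centromere protein gene, had lower values, 30.7, 43.9 and 34.2 CPM in KO, against 87.1, 51.4 and 56.2 CPM in WT libraries (log2 fold change -0.86 ± 0.32). Pttg1 (securin) was also under every WT library, at -0.42 ± 0.22.

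Other spindle and cytokinesis genes followed the members. WT replicate 1 was the highest WT library for 27 of 30 and KO replicate 2 the highest KO library for 21 of 30, and the list summed to 1709, 2822 and 1917 CPM in KO, against 2627, 1334 and 1060 CPM in WT libraries. In that list Kif2c and Kif18a, which encode kinesins that act on microtubule ends, had log2 fold changes of 1.37 ± 0.69 and 0.74 ± 0.41. Other kinetochore and checkpoint genes did so in part, with WT replicate 1 highest for 27 of 36 and a ratio of highest to lowest sum of 1.60 in WT. There Ska3 and Cenpl had log2 fold changes of 1.19 ± 0.54 and 1.28 ± 0.63. Of the condensin and cohesin genes, 13 of 16 were highest in WT replicate 1. Ncaph, a condensin subunit gene, was at 1.02 ± 0.63 and the cohesin regulator Pds5a at 0.38 ± 0.29.

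The summed levels of 2 further lists differed less between libraries than those of the members. The 19 genes of anaphase-promoting complex subunits and regulators summed to 2088, 2622 and 2191 CPM in KO, against 2313, 2150 and 2085 CPM in WT libraries. The ratio of highest to lowest was 1.26 in KO and 1.11 in WT. Their mean log2 CPM was 6.33, 6.64 and 6.28 in KO, against 6.36, 6.32 and 5.68 in WT libraries, lowest in WT replicate 3. WT replicate 1 was the highest WT library for 9 of the 19 genes, and KO replicate 2 the highest KO library for 11. Among them Espl1 (separase) stood at 5.19 to 24.4 CPM in KO and 0.101 to 7.13 CPM in WT. The 15 genes of CDK1 activation and mitotic entry had WT sums within 1.14 times of each other, but a sum is carried by genes with high CPM, here Ensa and Arpp19. The mean log2 CPM of these 15 genes was 5.39, 6.01 and 5.19 in KO, against 6.07, 4.95 and 4.67 in WT libraries, highest in the same libraries as the members. Nek2, a centrosomal kinase gene, stood at 40.5, 37.1 and 11.0 CPM in KO, against 88.2, 3.43 and 20.2 CPM in WT libraries. Melk, a kinase gene of proliferating cells, stood at 19.8, 47.7 and 26.1 CPM in KO, against 89.4, 25.1 and 0 CPM in WT libraries. These 2 genes were named after their values were seen, and both were highest of all 6 libraries in WT replicate 1. Among KO libraries Nek2 was highest in replicate 1, unlike the members. Of the 15 genes, WT replicate 1 lay above every KO library in 4 (26.7%, against 26.9% of tested genes). WT replicate 1 and KO replicate 2 were both the highest of their genotype in 5 (33.3%, against 11.2%). Cdc25b, a phosphatase that activates CDK1, stood at 56.1, 54.8 and 26.7 CPM in KO, against 31.5, 21.2 and 19.0 CPM in WT libraries (log2 fold change 0.93 ± 0.42, edgeR adjusted p = 0.866). Mastl (Greatwall kinase) was at -2.32 ± 1.24 and Plk4, the centriole kinase, at 0.58 ± 0.34.

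A list of MuvB subunits, MYBL2, FOXM1, pocket proteins and E2F factors with their partners had 14 measured genes. Their log2 fold changes were above 0 in 5 of 14 cases (50.9% of tested genes), with a median of -0.16. The difference from the members was not tested. Foxm1 stood at 2.67, 17.3 and 5.10 CPM in KO, against 44.7, 10.7 and 0.0506 CPM in WT libraries, where the last value is 1 count. Foxm1 was highest in KO replicate 2 and in WT replicate 1, as most members were, with a log2 fold change of -1.29 ± 1.18. The list as a whole did not share both orders. WT replicate 1 was the highest WT library for 8 of 14 genes (57.1%, against 35.9% of tested genes). KO replicate 2 was the highest KO library for 4 (28.6%, against 32.8%), and both held for 2 (14.3%, against 11.2%). Mybl2 stood at 34.8, 31.4 and 61.3 CPM in KO, against 61.6, 48.6 and 12.3 CPM in WT libraries, lowest in KO replicate 2. Rbbp4, a histone-binding subunit of MuvB, and Rbl1, the pocket protein p107, had values of 0.24 ± 0.22 and 0.22 ± 0.24. Lin54 was not analysed here.

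DNA replication genes, which are used earlier in the cycle, did not follow the WT order of the mitotic genes. The 50 genes summed to 7323, 10210 and 9385 CPM in KO, against 7941, 8472 and 8428 CPM in WT libraries. By this sum WT replicate 1, the highest for the members, was the lowest WT library. Their mean log2 CPM was 6.68, 7.18 and 7.07 in KO, against 6.58, 6.74 and 6.56 in WT libraries. By that mean WT replicates 1 and 3 were nearly level and WT replicate 2 was the highest. WT replicate 1 was the highest WT library for 13 of the 50 genes, while KO replicate 2 was the highest KO library for 36. The ratio of highest to lowest sum was 1.39 in KO and 1.07 in WT, against 1.71 and 3.75 for the mitotic members. Ung (log2 fold change 0.76 ± 0.24), E2f1 (0.73 ± 0.24) and Uhrf1 (0.56 ± 0.24) had the smallest p of the list, in which 37 of 50 genes were above 0 with a median of 0.10, with adjusted p from 0.752 to 0.851 by edgeR. Of 12 genes for CDK inhibitors and other quiescence factors, 10 were tested, with 4 above 0 and a median of -0.26. Of all tested genes 50.9% were above 0.

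**Figure D5:**
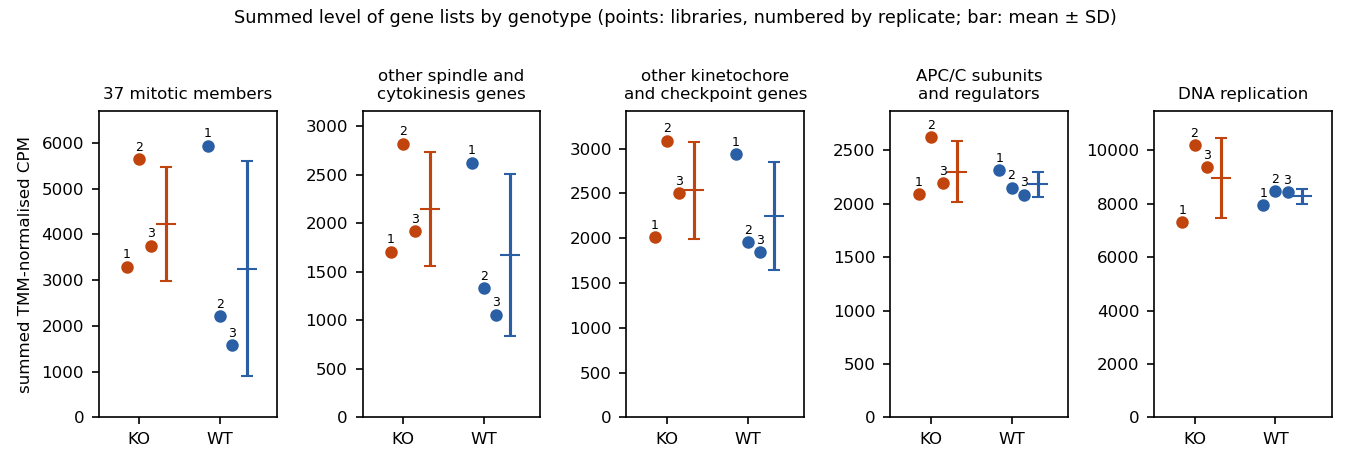
Summed TMM-normalised CPM of 5 gene lists in each library (points, numbered by replicate, KO left and WT right in each panel; bars are mean ± SD, n = 3). The members and the other spindle and cytokinesis genes are spread most widely in WT, with replicate 1 on top, while the anaphase-promoting complex (APC/C) list and the DNA replication list are nearly level in WT.

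Markers of other marrow cells were set beside the order of libraries. The 5 genes of CD48-positive multipotent progenitors, a more proliferative population next to the sort gate, summed to 537 to 726 CPM in KO and 497 to 623 CPM in WT libraries. All 5 were tested and their most abundant gene was Cd34. Their mean log2 CPM was 5.82, 6.37 and 6.11 in KO, against 5.97, 6.19 and 4.42 in WT libraries. By this mean KO replicate 2 was highest in KO and WT replicate 3 lowest in WT, as for the members. WT replicate 2 was the highest in WT, unlike for the members. Cd48 itself stood at 9.57, 34.6 and 16.6 CPM in KO, against 7.30, 11.8 and 0.0506 CPM in WT libraries. It was highest in KO replicate 2 and at 1 count in WT replicate 3, as several members were, but low in WT replicate 1. The early granulocyte list (4 of 7 tested, most abundant Prtn3) summed to 212 to 302 CPM in KO and 133 to 278 CPM in WT, lowest in WT replicate 1, with Ctsg at 0 throughout. The erythroid list (8 of 12 tested, most abundant Tfr2) summed to 516 to 667 CPM in KO and 487 to 557 CPM in WT, with Car1 and Ermap among the genes at 0 in all 6 libraries. The megakaryocyte list (5 of 7 tested, most abundant Itga2b, Gp6 at 0) summed to 711 to 1205 CPM in KO and 676 to 1006 CPM in WT.

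The macrophage and monocyte list (5 of 10 tested, most abundant Cd68) summed to 25.9 to 79.9 CPM in KO and 23.4 to 92.9 CPM in WT, with Adgre1, Mpeg1 and Ccr2 at 0. The B lineage list had 2 of 10 genes tested, most abundant Cd79b, with Ebf1, Pax5, Rag1 and Ms4a1 at 0, and summed to 84.0 to 102 CPM in KO and 65.9 to 101 CPM in WT. The T and NK list had 1 of 9 tested, Nkg7, with Cd3e, Cd3g, Cd8a, Klrd1 and Ncr1 at 0, and summed to 74.5 to 167 CPM in KO and 86.8 to 109.7 CPM in WT. The neutrophil list had 6 of 12 tested, with Mmp8 at 0. For none of these 8 lists was the summed level highest in WT replicate 1. A sum is carried by genes with high CPM, and the part of Cd48-positive or other marrow cells in the members' levels was not tested.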

How the data were processed

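Raw read counts per gene, 1 column per library, were deposited by the authors. The submitters' processing notes name Trimmomatic 0.39, HISAT2 2.2.1, Picard 2.26.1, HTSeq 1.99.2, DESeq2 1.38.3 and the build mm39 without roles. Annotation release and strand setting: not given in the sources used here. Reads of overlapping genes therefore cannot be told apart, which may touch members whose exons overlap another gene model on GRCm38 (Cdc20, Ccna2, Tacc3, Ube2c, Nusap1, Prc1, Plk1, Cdca8, Ckap2l and Top2a). The counts come from amplified reads without molecular identifiers and are not independent molecules, and the limit of 3 counts covers counting error only.

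Of 55357 Ensembl identifiers 52081 (94.1%, with 99.87% of counts) matched a symbol, and 322 of 323 list entries matched. The test was edgeR 4.0.16 in R 4.3.3, with filterByExpr (minimum count 10, minimum total 15) and TMM factors. A robust quasi-likelihood fit (legacy off) had genotype as the only term, with Benjamini-Hochberg adjustment over 14592 genes at 0.05. The fit was run on simulated counts, with only fold changes larger than any member had. That run does not show whether changes of the members' size would be found. Spread was taken on log2 CPM with a prior count of 2. Exonic lengths are those of GENCODE on GRCm38, not the build of the counts, and promoters those of RefSeq on GRCm38.p6.

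The rule that lists the members uses no measured value, but the members and lists were chosen with earlier results of these data known. Named with all values were the 2 most abundant members of each role, any with an unadjusted p under 0.05 or without overlap between genotypes, and those of largest and smallest WT spread. Up to 3 genes of each other list were named by smallest p, with Dcaf8 and the most abundant or absent markers. Further names were chosen after their values were seen. Alternatives were RLE factors, no filter or a stricter one (5 CPM in 3 libraries), DESeq2 1.42.0, limma-voom (limma 3.58.1) with sample weights, the legacy fit, a replicate block, other prior counts, CPM of the total count and each library left out. Replicates were separate mice.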

Additional observations from a re-analysis of the deposited data

How the results depend on the processing

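The count of members past the adjusted threshold stayed at 0 under every alternative run. The median log2 fold change of the members, 0.34, became 0.95 in the limma-voom fit and ranged from -0.01 to 1.51 with 1 library left out. The number of members above 0 was 18 to 37 with 1 library left out, and 32 to 34 of 37 under the other alternatives. DESeq2 called 153 genes when run on all genes with a count; its first run, on the genes of edgeR's filter, had called 68, and the wider run was preferred after that count had been seen, so the first is given here as an alternative chosen after seeing the data. Over all genes edgeR and limma-voom called 0, with 849 and 775 at an unadjusted p under 0.05. Dcaf8 (log2 fold change -2.28) passed in both DESeq2 runs (-2.32 and adjusted p = 1.98e-09 on all genes with a count) and under no other alternative.

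The replicate numbers are not stated to pair mice, and deviations of same-numbered libraries correlated at 0.059, -0.038 and 0.006. With the replicate block, 34 members were above 0 and the median was 0.48. An unadjusted p under 0.05 was reached by 2 of 37 members and by 807 of all 14592 tested genes, a similar share. Single members changed sign as follows. Ckap2l was 0.24 with the replicate block and 0.50 with limma-voom, Ect2 -0.57 and Mki67 0.22 with limma-voom, and Top2a -0.0019 with DESeq2 and -0.0013 in its first run. With 1 library left out, 19 members changed sign in at least 1 case, 15 of them without WT replicate 3 and 11 without KO replicate 2. The cause of these changes was not tested.

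The lowest and highest log2 fold changes with 1 library left out, for the members that changed sign, were Anln -0.50 to 1.81, Aurkb -0.06 to 1.65, Bub1b -0.11 to 1.68, Ccna2 -0.33 to 1.00, Cdc20 -0.04 to 1.10, Ckap2 -0.68 to 0.29, Ckap2l -0.55 to 0.93, Ect2 -1.17 to 1.05, Hmgb2 -0.01 to 0.53, Hmmr -0.38 to 0.75, Kif11 -1.41 to 0.06, Kif20b -0.22 to 1.12, Mki67 -0.45 to 0.63, Ndc80 -0.25 to 1.87, Nuf2 -0.27 to 1.51, Prc1 -0.06 to 1.87, Tacc3 -0.15 to 0.35, Top2a -0.42 to 1.34 and Ttk -0.33 to 1.30.

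The median spread and the order of libraries were within 1.5 times of their values with prior counts of 0.5 and 5 and with CPM of the total count. With 3 mice per genotype and 50 cells per library, members near 0 counts in a library limit what their fold changes can show.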
